A study of Drosophila melanogaster with 6 samples.

Results

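The genes described here are 7 enzymes that make or spend stored sugar in Drosophila S2 cells, namely Treh, Tps1, GlyP, UGP, Pgm, Pepck and fbp. They were taken by gene symbol from tables of 14210 genes, and 6 of the 7 reached the level needed for testing. Polyadenylated RNA had been sequenced from S2 cells, a line of embryonic origin with hemocyte features. The 3 wild-type libraries were compared with 3 libraries from cells stably depleted of the uridylyltransferase Tailor, the product of CG1091, with CRISPR/Cas9. The labels do not say whether the knockout cells are 1 clone, and they name no culture treatment or time for either group. The labels call the knockout libraries biological replicates and say nothing of separate cultures for the wild type, so that the p-values rest on differences among libraries that may be technical repeats.

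In insects trehalose is the main circulating sugar. It is built from UDP-glucose and glucose phosphate, in which the synthase Tps1 acts, and trehalase, the product of Treh, splits it back into glucose. Glycogen is the store inside the cell: UGP makes the UDP-glucose that glycogen synthase uses, GlyP frees glucose phosphate from the polymer, and Pgm moves the phosphate group so that this sugar can enter glycolysis or leave it. Pepck and fbp encode enzymes of gluconeogenesis, in which they pass steps that glycolysis can run only downwards. In the fly, trehalose synthesis is known chiefly from the fat body.

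All libraries had 18411809 to 22957816 fragments, recovered from the deposited confidence intervals. CG1091 mRNA was lower in the knockout, at 22.3, 26.1 and 26.1 FPKM against 50.7, 51.2 and 47.7 FPKM (log2 change -0.98, limma adjusted p = 2.50e-07). Which part of the transcript was edited cannot be read from such values. FPKM divides a gene's fragments by its transcript length and by the size of the library, so levels of different genes can be set side by side. Of 6 hemocyte markers, srp and crq were well expressed, and both rose (log2 0.20 and 0.23), as did He (0.70) at a low level, while Pxn fell from 3.12 ± 0.195 to 1.47 ± 0.175 FPKM (limma adjusted p of 0.0186 or less for the 4 genes). Hml, at 0.398 FPKM in wild type and 1.52 FPKM in the knockout, and nimC1, at 0.0282 and 0.170 FPKM, were too low to be tested. Their knockout libraries were above their wild-type ones, and 67.3% of tested genes likewise had groups without overlap. The summed level of the 6 hemocyte markers was 280.3 to 292.7 FPKM in wild type and 328.0 to 339.8 FPKM in the knockout. This sum came almost wholly from crq and srp, with means of 223.7 and 58.7 FPKM in wild type. The 4 tested hemocyte markers passed a limma adjusted p of 0.05, as did 62.1% of all tested genes. Of 6 markers of other tissues, Lsp2 of the fat body was listed at 0 throughout, and Yp1, Fbp1, Mhc and vas were at most 0.102 FPKM. The sum of 7.96 to 8.83 FPKM in wild type and 10.4 to 11.0 FPKM in the knockout came almost wholly from elav. This neuron marker, the 1 of the 6 that was tested, rose from 8.23 to 10.5 FPKM (log2 0.32, limma adjusted p = 0.00152). The part of these markers in the results below was not tested.

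Of the 6 tested genes 5 rose and 1 fell in the knockout cells. Treh and GlyP, which release sugar from trehalose and glycogen, and Pgm, which acts next to GlyP, each rose about as much, by 3.05-fold to 3.30-fold, fbp rose 2.19-fold and UGP 1.35-fold, and Pepck fell 3.01-fold. Tps1 was close to undetected in all 6 libraries. All 6 tested genes passed a limma adjusted p of 0.05, where 62.1% of the 7259 tested genes did. Among all tested genes 30.1% were called higher and 32.1% lower. A limma adjusted p under 0.05 together with a change of at least 2-fold on the log2(FPKM + 1) scale was found in 4 of the 6, against 4.01% of tested genes. The knockout and wild-type libraries did not overlap in any of the 6, as in 67.3% of tested genes. Fewer cells of a kind and less RNA per cell cannot be told apart in such bulk RNA.

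**Figure D1:**
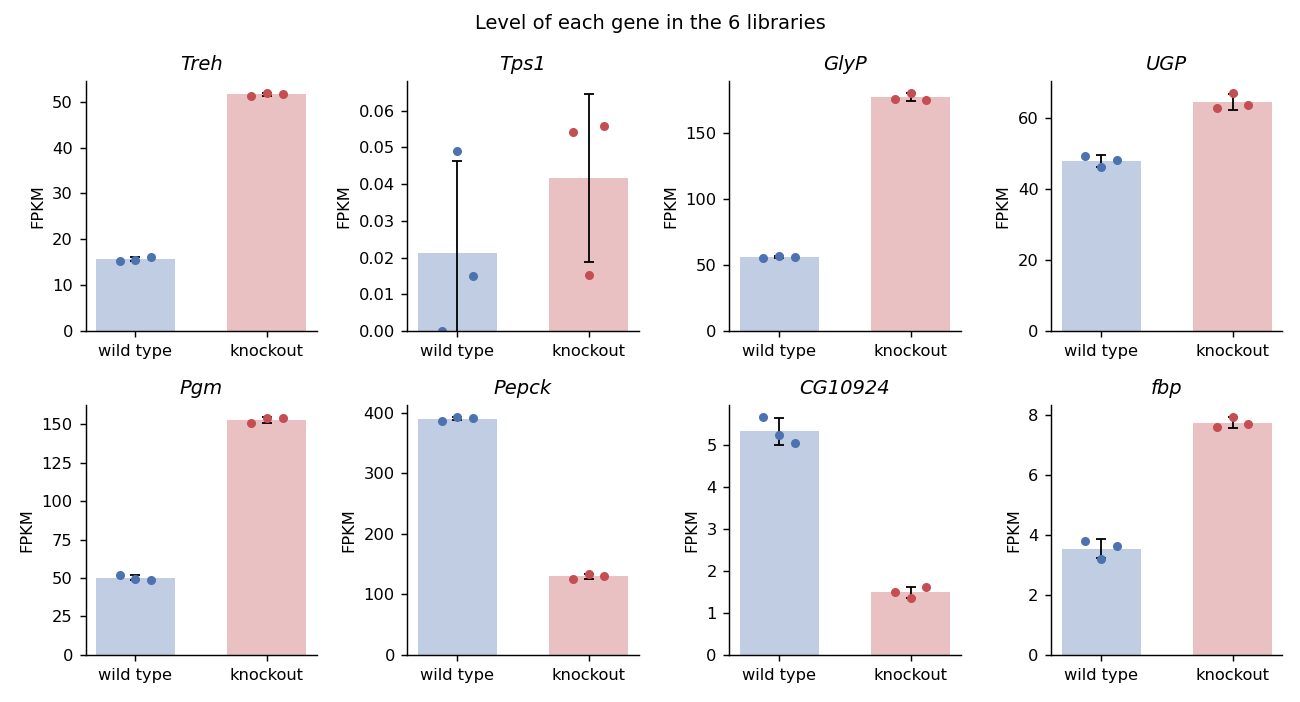
FPKM of each of the 7 genes, and of the second Pepck gene CG10924, in the 3 wild-type (blue) and 3 knockout (red) libraries; points are libraries, bars the means and error bars the SD (the lower bar of Tps1 in wild type is cut at 0). Pepck falls from 390.2 to 129.6 FPKM while Treh, GlyP, Pgm, UGP and fbp rise, and Tps1 stays under 0.06 FPKM.

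Treh encodes trehalase. The gene lies on chromosome 2R from 16961530 to 16975734 (FBgn0003748) and has 6 annotated transcripts in the files, which a gene-level value does not separate. The wild-type libraries held 15.2, 15.6 and 16.1 FPKM, and the knockout libraries 51.2, 51.8 and 51.7 FPKM. Every knockout library was above every wild-type library. The spread between libraries was 3.04% in wild type and 0.578% in the knockout, and neither exceeded its counting error (3.07% and 1.77%). The mean rose from 15.6 ± 0.476 to 51.6 ± 0.298 FPKM (mean ± SD of 3 libraries), or by log2 1.66 with an SE of 0.0459 (limma adjusted p = 2.18e-10). This was place 49 among the rises of all tested genes. The knockout values rest on 2975 to 3662 fragments and the wild-type values on 985.9 to 1158.

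Tps1, which encodes the synthase that works in the opposite direction, was at the limit of detection. It lies on chromosome 2L from 4388327 to 4392778 (FBgn0027560) with 1 transcript. Wild-type libraries gave 0, 0.0490 and 0.0150 FPKM and knockout libraries 0.0542, 0.0153 and 0.0557 FPKM. These values stand for 4 fragments in the 3 wild-type libraries together (exact Poisson 95% interval 1.09 to 10.2) and about 6 in the 3 knockout libraries (2.20 to 13.1). The groups overlap, and no fold change is given because every library was at or below 3 fragments. The authors' deposited table has mean normalised counts of 1.28 in wild type and 3.23 in the knockout for Tps1, with an adjusted p of 0.655. A difference in Tps1 was therefore not detectable at this depth. In these cells the mRNA of the splitting enzyme was present and that of the synthase was not above the counting limit.

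GlyP encodes glycogen phosphorylase and lies on chromosome 2L from 2130815 to 2137296 (FBgn0004507). Its level was 55.4, 56.9 and 56.5 FPKM in wild-type libraries and 175.8, 180.4 and 174.7 FPKM in knockout libraries, with a wide gap between the groups. The mean rose from 56.2 ± 0.779 to 177.0 ± 3.02 FPKM (SD over 3 libraries, log2 1.64 with an SE of 0.0369, limma adjusted p = 4.05e-11). Between 4018 and 13685 fragments lie behind each value.

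Pgm encodes phosphoglucomutase and lies on chromosome 3L from 16119155 to 16121696 (FBgn0003076). Wild-type libraries held 52.0, 49.5 and 48.9 FPKM and knockout libraries 150.5, 154.1 and 153.9 FPKM. The groups were again far apart. The mean rose from 50.1 ± 1.64 to 152.9 ± 2.04 FPKM (SD over 3 libraries, log2 1.59 with an SE of 0.0399, limma adjusted p = 1.02e-10). Treh, GlyP and Pgm ranked in places 49, 52 and 57 among the rises of all tested genes, and their log2 changes of 1.59 to 1.66 lie close together beside SEs of 0.0369 to 0.0459. Differences among the 3 changes were not tested.

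UGP makes UDP-glucose for glycogen, for trehalose and for glycosylation. The gene, on chromosome 3L from 9343967 to 9352031 (FBgn0035978), stood at 49.2, 46.1 and 48.1 FPKM in wild type and at 62.6, 66.9 and 63.4 FPKM in the knockout. The groups did not overlap, but the step was small beside those of GlyP and Pgm. The mean rose from 47.8 ± 1.55 to 64.3 ± 2.30 FPKM (SD over 3 libraries, log2 0.42 with an SE of 0.0452, limma adjusted p = 1.39e-05), which is place 884 among all rises. UGP shares 623 bases with PGRP-LF on the opposite strand (log2 change -0.49, limma adjusted p = 3.59e-05) and contains CG32040 (mean 1.01 FPKM in wild type and 0.992 FPKM in the knockout). No source used here says whether the strand of a read was used in counting, which makes this small rise less certain than the others. Tps1 shares 9 bases with CG3652, and none of the other 5 genes overlaps another listed gene.

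The balance of GlyP and UGP mRNA differed between the groups in every library. GlyP over UGP, as a difference of log2(FPKM + 1), was 0.17, 0.30 and 0.23 in wild-type libraries and 1.47, 1.42 and 1.45 in knockout libraries. The mRNAs were thus near parity in wild type, and GlyP was well above UGP in the knockout. The difference of the group means was 1.22. In a two-sided exact permutation test the p was 0.10, which is the smallest p that 3 libraries against 3 can give, so no ratio could pass 0.05, and the adjusted p over the 5 ratios examined was 0.10 as well. The same p holds for each of the other ratios below.

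Pepck encodes phosphoenolpyruvate carboxykinase, which turns oxaloacetate into phosphoenolpyruvate. It lies on chromosome 2R from 14424272 to 14426924 (FBgn0003067). Wild-type libraries gave 386.6, 392.2 and 391.9 FPKM and knockout libraries 126.1, 133.2 and 129.7 FPKM. It was the member with the highest level in wild type, and no knockout library came near that level. The mean fell from 390.2 ± 3.16 to 129.6 ± 3.55 FPKM (SD over 3 libraries, log2 -1.58 with an SE of 0.0359, limma adjusted p = 4.21e-11), the 28th largest fall among the tested genes.

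CG10924, named Pepck2 in the current gene name table, is the neighbouring second Pepck gene, 1008 bases away on the same strand. Its level was 5.68, 5.25 and 5.05 FPKM in wild type and 1.49, 1.35 and 1.63 FPKM in the knockout. The 2 groups were apart here too, at a level far below that of Pepck. CG10924 fell by 1.34 on the log2(FPKM + 1) scale (SE 0.0892, limma adjusted p = 3.03e-07). It supplied 1.27% to 1.45% of the summed FPKM of both genes in wild-type libraries and 1.01% to 1.24% in knockout libraries. The log2 ratio of Pepck over CG10924 differed by -0.24 between the groups, but by 0.18 with a pseudocount of 0.1 in place of 1. The sign of this ratio therefore rests on the pseudocount, which weighs most on a gene as low as CG10924. In mean FPKM without a pseudocount, CG10924 fell 3.57-fold and Pepck 3.01-fold. The difference between these 2 falls was not tested. Reads of these related neighbours could have been exchanged in counting, and this was not tested.

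fbp encodes fructose bisphosphatase, the gluconeogenic enzyme that opposes phosphofructokinase. The gene lies on chromosome 2L from 19761579 to 19764134 (FBgn0032820). Wild-type libraries gave 3.82, 3.19 and 3.64 FPKM and knockout libraries 7.63, 7.96 and 7.70 FPKM. All knockout libraries were above all wild-type ones, though the level was low in both groups. The mean rose from 3.55 ± 0.323 to 7.76 ± 0.176 FPKM (SD over 3 libraries, log2 0.95 with an SE of 0.0782, limma adjusted p = 1.83e-06). The wild-type values rest on 79 to 102 fragments, for a counting error of 10.5% beside a spread of 9.10% between those libraries.

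The gluconeogenic pair therefore moved in opposite directions. Pepck over fbp was 6.33, 6.55 and 6.40 on the log2 scale in wild-type libraries and 3.88, 3.90 and 3.91 in knockout libraries, a difference of -2.53. Pepck over PyK, the pyruvate kinase gene whose step Pepck helps to pass, went from 0.99 to 1.06 in wild-type libraries to -1.18 to -1.14 in knockout libraries. Pepck mRNA was above PyK mRNA in each wild-type library and below it in each knockout library. Treh over Tps1 went from 4.02, 3.98 and 4.08 to 5.63, 5.70 and 5.64, and since Tps1 was near 0 this ratio follows Treh alone.

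The order of the levels changed with these shifts. In wild type it was Pepck, GlyP, Pgm, UGP, Treh, fbp and Tps1 by mean FPKM, and Pgm and UGP did not differ beyond their spread. In the knockout it was GlyP, Pgm, Pepck, UGP, Treh, fbp and Tps1, with no overlap between neighbours. Pepck went from place 198 to place 645 among all 14210 genes, GlyP from 1579 to 472, Pgm from 1762 to 537 and Treh from 4436 to 1753.

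**Figure D2:**
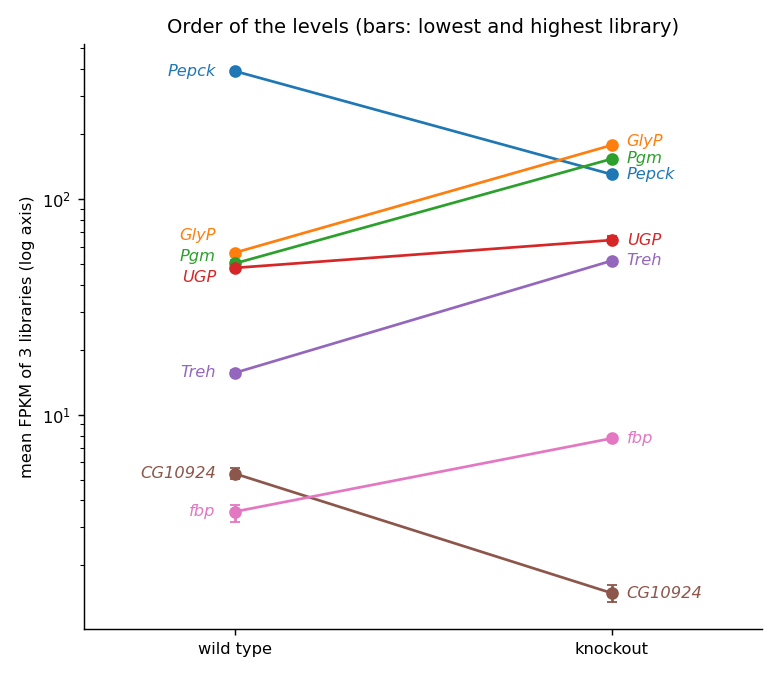
Mean FPKM of 3 libraries on a log axis in wild type (left) and knockout (right), with bars from the lowest to the highest library; Tps1, near 0, is left out. Pepck drops from first place, at 390.2 FPKM, to below GlyP (177.0 FPKM) and Pgm (152.9 FPKM), and CG10924 and fbp change places.

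The authors' deposited table, made from counts, gave much the same changes. Its log2 values, turned to knockout over wild type, were 1.69 for Treh, 1.64 for GlyP, 1.58 for Pgm, 0.41 for UGP, 1.12 for fbp, -1.62 for Pepck and -1.91 for CG10924. The values for fbp and CG10924 are larger than those above, and the log2(FPKM + 1) scale used there understates changes of low genes. In the authors' deposited table, 11643 genes had a test, of which 36.0% had an adjusted p under 0.05, as did the 6 genes other than Tps1.

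**Figure D3:**
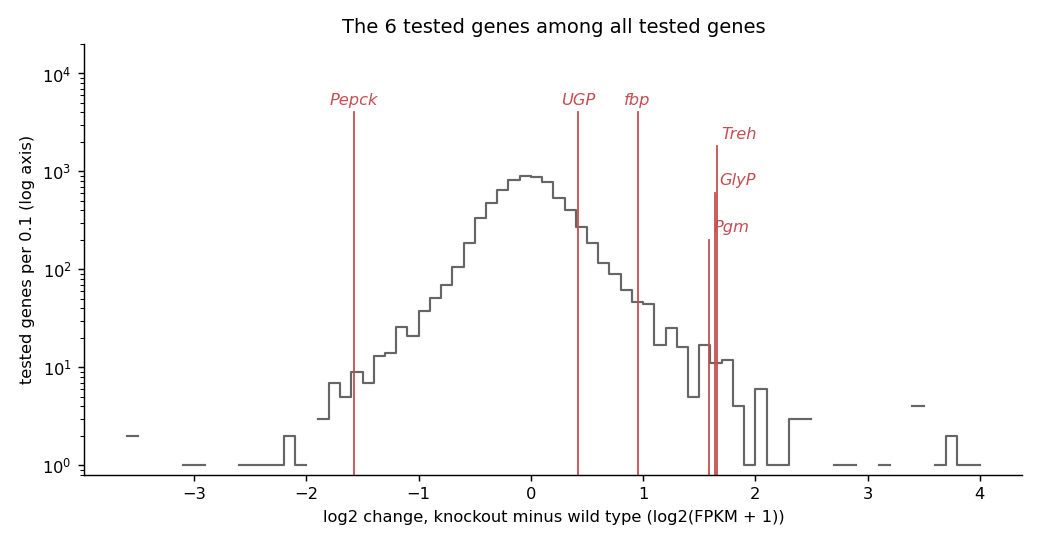
Log2 change of all 7259 tested genes in steps of 0.1 (grey line, number of genes on a log axis) with the 6 tested genes of the set marked in red. Treh, GlyP and Pgm stand at 1.59 to 1.66 in the right tail, Pepck at -1.58 in the left tail, and UGP at 0.42 in the shoulder.

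Most other genes of glycogen metabolism were higher in the knockout as well. Of 10 tested genes 9 rose and 1 fell, with a median log2 change of 0.68, where the median of all tested genes was -0.009. All 10 were called, and of all tested genes 30.1% were called higher and 32.1% lower. Gbs-76A, which targets protein phosphatase to glycogen, rose from 6.33 ± 0.237 to 28.5 ± 1.32 FPKM (SD over 3 libraries) or by log2 2.01 (limma adjusted p = 3.47e-10). CG33138, the branching enzyme gene AGBE in the current name table, rose from 27.9 ± 0.736 to 59.6 ± 2.22 FPKM. Glycogenin, the primer protein of glycogen, rose from 14.5 ± 1.18 to 31.0 ± 1.39 FPKM. PhKgamma, the catalytic subunit of the kinase that activates glycogen phosphorylase, rose by log2 0.76. The glycogen synthase gene CG6904, named here after its value was seen, rose from 100.2 ± 1.44 to 152.3 ± 3.19 FPKM. Genes of both synthesis and breakdown were thus among those that rose. The gene that fell was sgg, the kinase GSK3 that inhibits glycogen synthase (log2 change -0.26), also named after its value was seen.

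Other trehalose genes were mostly silent. Tret1-1, a trehalose transporter gene and the 1 of 5 that was tested, rose from 27.7 ± 0.612 to 32.6 ± 0.801 FPKM (SD over 3 libraries, log2 0.23, limma adjusted p = 0.00134). The transporter paralog Tret1-2 and the genes CG5171, CG5177 and CG6262 had means of 0.00210 to 0.154 FPKM.

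The other gluconeogenesis genes were split in direction. Of 4 tested genes, CG10924 among them, 2 rose and 2 fell, with a median log2 change of 0.04. All 4 were called, beside 62.1% of all tested genes. Mdh1, a malate dehydrogenase gene, rose from 83.5 ± 1.72 to 121.8 ± 7.94 FPKM (SD over 3 libraries). CG1516, the pyruvate carboxylase gene PCB, rose from 21.2 ± 0.387 to 25.2 ± 0.950 FPKM, a call that was lost when changes were centred by exon length (log2 0.09, adjusted p = 0.131). Besides CG10924, Mdh2 fell by 0.15 on the log2 scale with overlapping groups (limma adjusted p = 0.0446), and its call was lost under 11 of 18 other settings, among them leaving out any 1 library other than knockout replicate 2. CG15400, the glucose phosphatase gene G6P that would release free glucose, was listed at 0 in 5 libraries and at 0.10 FPKM in the first knockout library.

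The steps that glycolysis shares with gluconeogenesis were all called higher, 8 of 8, with a median log2 change of 1.02. For this count and the 4 of 4 below, the share of all tested genes called higher was 30.1%. Pgi, which joins the product of Pgm to the main pathway, rose from 47.1 ± 1.13 to 154.8 ± 6.39 FPKM (SD over 3 libraries). Tpi, triose phosphate isomerase, went from 112.1 ± 3.88 to 277.9 ± 14.2 FPKM, Gapdh2, a dehydrogenase gene, from 267.1 ± 2.23 to 573.2 ± 18.3 FPKM and the aldolase gene Ald from 184.0 to 387.7 FPKM on average. Gapdh1 and Gapdh2 are close copies that may share reads. A list of the one-way steps of glycolysis together with lactate dehydrogenase, a reversible enzyme that acts on its end product, rose in 4 of 4 tested genes, with a median log2 change of 1.05. ImpL3, the lactate dehydrogenase gene, rose by log2 1.58. Of the one-way steps, Hex-A, a hexokinase gene, rose by log2 1.09, Pfk, phosphofructokinase, from a mean of 54.8 to 110.8 FPKM (limma adjusted p = 9.62e-09) and PyK by log2 0.60. Hex-C, a second hexokinase gene, had a mean of 0.104 FPKM and was not tested. fbp and the opposing Pfk thus rose together, while Pepck and the opposing PyK went opposite ways.

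Genes that use UDP-sugars elsewhere, or act in the galactose and hexosamine branches beside them, were split in direction. The 7 genes, all tested, had a median log2 change of -0.04: 2 were called higher, 1 lower, and Ugt, Galt, Galk and mmy, at -0.08 to 0.08, were not called. Of all tested genes 30.1% were called higher and 32.1% lower. When centred by exon length, Ugt (log2 -0.19, adjusted p = 0.00523), Galk (-0.16, adjusted p = 0.0394) and Galt (0.23, adjusted p = 0.0272) were called. GlcT-1, which makes glucosylceramide, rose by log2 0.40 and CG10627, the gene nst of the hexosamine branch, by 0.38. The UDP-glucose dehydrogenase gene sgl fell from 145.3 ± 2.98 to 120.2 ± 2.92 FPKM (SD over 3 libraries).

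Among 14 regulators of sugar metabolism 12 were tested, and their median log2 change was 0.07. There were 6 that rose, 4 that fell and 2 that were not called, where 30.1% of all tested genes were called higher and 32.1% lower. The sugar-response factor sug rose from 3.83 ± 0.439 to 11.1 ± 2.16 FPKM (SD over 3 libraries), with the second knockout library above the other two. The hypoxia factor gene sima rose by log2 0.69 and the CREB coactivator gene TORC, Crtc in the current name table, by 0.34. The genes that fell were crc, the fly ATF4 (log2 change -0.35), and foxo, CrebB-17A and Spargel (log2 changes -0.32, -0.20 and -0.14), the last 3 named after their values were seen. The call of Spargel, the fly PGC-1, was lost under 4 of 18 other settings, with knockout replicate 1, knockout replicate 2 or wild-type replicate 3 left out and with fragments in place of FPKM. The genes cbt, ERR and Mio, also named after their values were seen, were higher by log2 0.12 to 0.20, and each lost its call under 2 to 10 of the 18, while Mio turned to -0.03 when centred by exon length. The genes bigmax and Hnf4 were not called (log2 0.03 and -0.11), but Hnf4 was called lower under 6 of the 18, among them the authors' deposited table (-0.15), the fit without wild-type replicate 1 (-0.15) and centring by exon length (-0.27, adjusted p = 4.67e-04). Akh and its receptor gene, listed as GRHR, had means of 0.259 and 0.0181 FPKM.

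**Figure D4:**
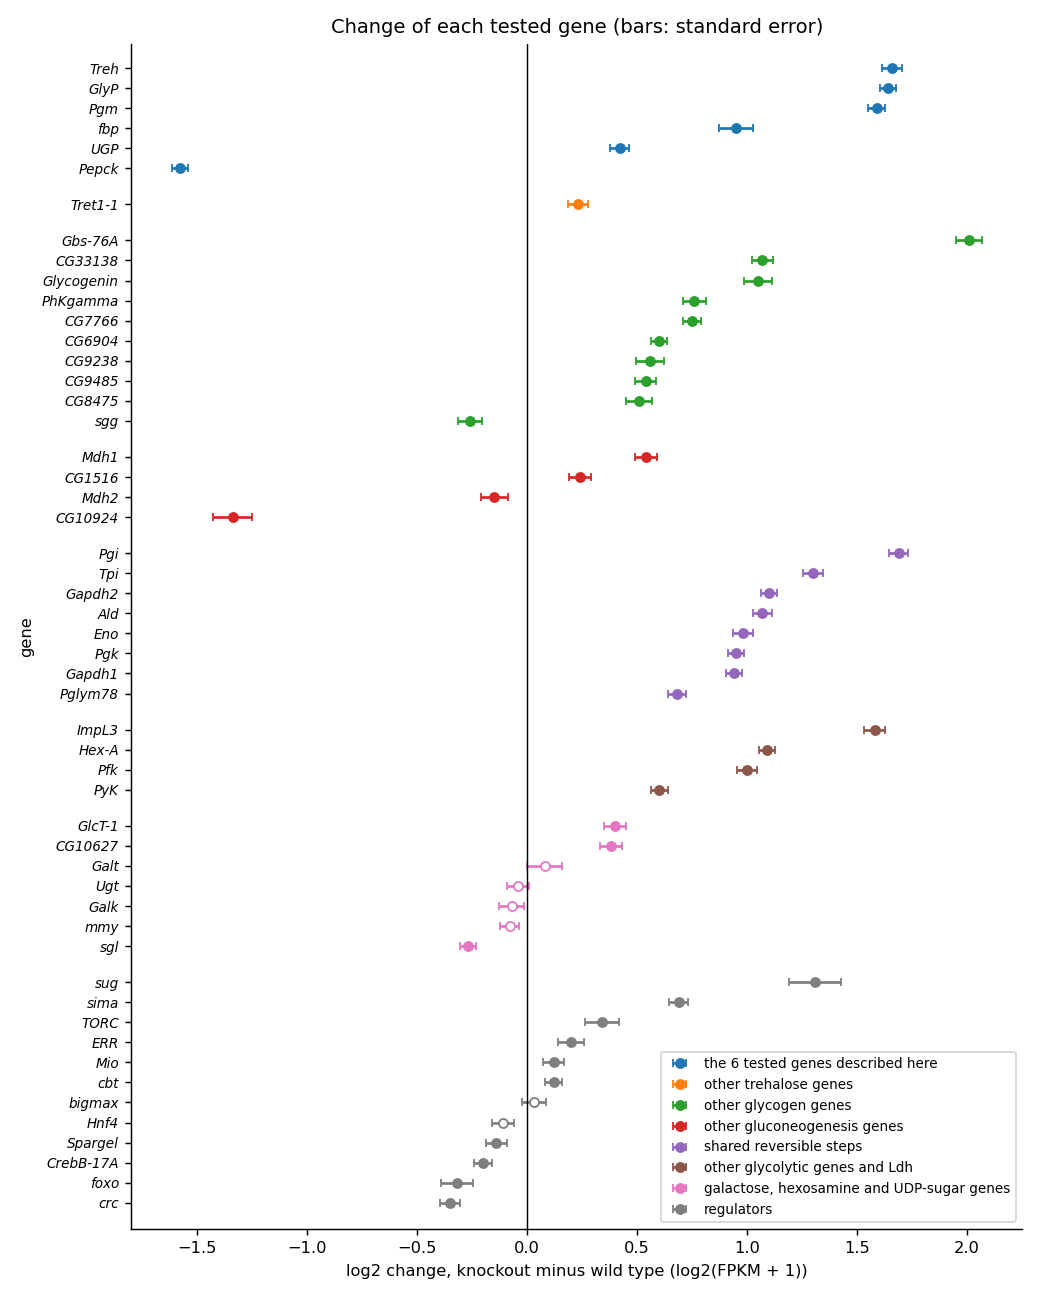
Log2 change of every tested gene of the set and of the 7 pathway lists, knockout minus wild type on the log2(FPKM + 1) scale, with bars of 1 SE; filled points passed an adjusted p of 0.05. Glycogen genes and glycolytic steps lie mostly between 0.5 and 1.7, Pepck (-1.58) and CG10924 (-1.34) lie far to the left, and the galactose, hexosamine and UDP-sugar genes lie between -0.27 and 0.40.

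Genes whose profile over the 6 libraries was most like that of Treh or Pepck were found by Euclidean distance between log2(FPKM + 1) values centred on the wild-type mean. For Treh the nearest of the tested genes was GlyP, at a distance of 0.0686, followed by Pgi (0.104) and fra, the netrin receptor gene frazzled (0.139). For Pepck they were JhI-21, an amino acid transporter gene that fell from 889.6 ± 22.3 to 299.9 ± 12.1 FPKM (distance 0.0676), Dgp-1 (0.0726) and CG1673 (0.0771). With 6 libraries in 2 groups, likeness of this kind is mainly likeness in the size of the change.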

How the data were processed

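Per the file headers, the authors' tables hold 1 FPKM value per gene and library with its confidence bounds, as Cufflinks writes them. The authors' deposited comparison table lists, under DESeq headers, a signal for each group (the mean normalised count), the fold ratio of the groups, that ratio in log2, and p-values. Per the submitters' processing notes, the authors used TopHat 1.4.1 and BWA 0.6.1, HTSeq 0.6.1p1, Cufflinks 1.3.0 and DESeq 1.10.1. The step each tool served, the genome build and the gene annotation were not given in the sources used here. Per the labels' protocols, RNA was poly(A)-selected and libraries were directional. Coordinates are the files' own, with the start made 1-based.

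Tables were joined by gene identifier. Testing covered the 7259 genes that averaged 1 FPKM or more and used limma 3.58.1 (R 4.3.3) on log2(FPKM + 1) values (eBayes with trend and robust settings, Benjamini-Hochberg adjustment over all of them, threshold 0.05). Fragment numbers were recovered as the squared quotient of 2 FPKM and the width from value to upper bound, and in genes with 1 transcript 92.6% to 93.1% of those under 30 came out whole to within 0.02. Where a gene has several transcripts, they are effective numbers. Intervals on them cover counting error only. Precision is limited by 3 libraries per group. At most 0.0138% of tested genes had equal FPKM in a pair of libraries.

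The genes described and the pathway lists were chosen with earlier results of these data known, so lists are given by counts and medians without a test. Named were the 7 genes, up to 4 called genes per list by size of change, CG1091, genes overlapping the 7, and the 3 tested genes nearest to Treh and to Pepck. All 54 genes of the 7 lists were matched, 46 were tested, and 40 of these were called (87.0%, beside 62.1% of all tested genes). List genes that are not named enter the counts. A gene that had been in a list is left out of all counts and not reported here. Of 50 other genes considered, 17 overlap another tested gene, CG1516, Tret1-1, sgl, TORC, CrebB-17A, ERR, fra, JhI-21 and Gapdh1 among them, and their values are less certain. Ratios were tested by exact permutation with scipy 1.17.1. Python 3.11.15 and matplotlib 3.10.9 were used for the figures.

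The alternatives were a pseudocount of 0.1 or 5, a filter at 5 FPKM or none, scaling to 1 median, quantile normalization, plain eBayes, a replicate block, each library left out in turn, genes of status OK, limma-voom on the recovered fragments, and the authors' deposited table. Centring on the median of 10 exon length groups was added after seeing the data.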

Additional observations from a re-analysis of the deposited data

How the results depend on the processing

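All 6 tested genes of the set stayed called in the same direction under each of the 18 alternatives, with log2 changes of 1.45 to 1.72 for Treh, 1.54 to 1.67 for GlyP, 1.52 to 1.67 for Pgm, 0.37 to 0.44 for UGP, 0.58 to 1.15 for fbp and -1.63 to -1.55 for Pepck (largest limma adjusted p 2.16e-04, for UGP; the range includes the authors' deposited table). Short transcripts were lower in the knockout in general, with a median log2 change of -0.19 in the shortest of 10 exon length groups and 0.11 in the longest, and centring on these groups, chosen after seeing the data, kept all 6 calls. After each gene's group mean was subtracted, correlations were -0.050 to 0.003 between same-numbered wild-type and knockout libraries and -0.055 to 0.077 between the others. No effect shared by replicate number was seen in these remainders, which does not settle whether the libraries were prepared in pairs. With the replicate number as a block 6 genes of the set, 39 genes of the lists and 4393 of all tested genes were called. Leaving out 1 replicate in turn left all 6 called, 37 to 38 list genes and 4004 to 4437 of all tested genes.

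Of 1020 values of single genes under an alternative, 979 kept direction and side of the threshold, 31 lost the call and 9 gained one. Mio turned from 0.12 to -0.03 (adjusted p = 0.635) when centred by exon length, and it lost its call under 10 others, as Mdh2 did under 11. Among the ratios, a pseudocount of 0.1 gave 1.48 for Treh over Tps1, -2.70 for Pepck over fbp and 0.18, in the opposite direction, for Pepck over CG10924. A pseudocount of 5 gave 1.45, -2.13 and -0.88 for the same ratios and -2.15 for Pepck over PyK. Quantile normalization gave 1.57 for Treh over Tps1 and -0.14 for Pepck over CG10924. A pseudocount weighs most on low genes, and CG10924, fbp and Tps1 are the low genes of these ratios. Depth limits Tps1, fbp in wild type, and CG10924 in the knockout, where it had 94 to 112 fragments and a counting error of 9.84%.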
